A study of Arabidopsis thaliana with 16 samples.

Results

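The genes described here are rpoA, rpoB, rpoC1, rpoC2, accD and matK, which lie in the plastid genome and serve gene expression and fatty acid synthesis instead of photosynthesis. They were taken by name, each through the brightest probe set that the annotation pairs with that gene alone. All 6 of the 6 listed genes were measured, among 69 plastid-encoded genes and 13356 genes in all with such a probe set, and each had 1 probe set. RNA had been hybridised to Affymetrix ATH1 arrays, which report a log2 signal per probe set, from whole Arabidopsis thaliana seedlings that were 4 days old. Every group carried FHY3p:FHY3-GR in the fhy3-4 mutant, in which the far-red signalling factor FHY3, made under its native promoter, is fused to the glucocorticoid receptor and enters the nucleus only when dexamethasone (DEX) is given. The 4 groups of 4 arrays were dark mock (ethanol), dark DEX, far-red mock and far-red DEX, grown in the dark or under continuous far-red and then given 10 µM DEX or mock for 2 h. No group without the fusion was analysed, so an effect of DEX itself and one of nuclear FHY3-GR cannot be told apart.

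Plastids transcribe their genes with a pair of RNA polymerases. The plastid-encoded polymerase resembles that of bacteria: rpoA encodes its alpha subunit, rpoB the beta subunit, rpoC1 the beta′ subunit and rpoC2 the beta″ subunit, while sigma factors and many accessory proteins come from the nucleus. It is known mainly for transcribing photosynthesis genes, whereas a phage-type polymerase made in the nucleus is known for transcribing the rpoB-rpoC1-rpoC2 operon and accD. The accD product is the beta subunit of the carboxyltransferase of plastid acetyl-CoA carboxylase, which makes the building block for fatty acids, and matK encodes a maturase that helps to splice group II introns and lies inside an intron of a lysine tRNA gene.

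Correlations between the arrays within a group lay between 0.9956 and 0.9981, and no 2 arrays held identical values. The array labelled far-red mock replicate 1 stood apart in its polyadenylated bacterial spike-in controls: the mean log2 signal of their 4 probe sets at the 3′ end was 5.12 there and 6.93 to 8.04 on the other 15 arrays. Values without this array are also given for the light changes of accD, rpoC1, rpoC2 and matK under mock. The same holds for the correlations that passed and the neighbour pairs without rpoB that passed. The labels name a seedling and no tissue. Of the markers listed, PSAN, RCA and SBPASE of the photosynthetic apparatus and PORB, the protochlorophyllide oxidoreductase known from etioplasts, were measured. The first 3 were higher in far-red mock than in dark mock by 1.91, 1.46 and 1.19 on the log2 scale, and PORB fell by 1.12; none of the 5 root or 6 seed storage markers was paired with a probe set here.

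accD and rpoC1 were lower in far-red light, and the other 4 genes did not pass the test in either treatment. Under mock, accD fell 1.59-fold and rpoC1 fell 1.55-fold. These were the only 2 genes called lower among the 69 plastid genes, of which 41 were higher. Of all probe sets, 20.8% were called lower under mock and 17.8% higher. The rpoC1 call held in 10 of the 16 fits that left out 1 array and was lost in other models given below. Under DEX, where 22.2% of probe sets were called lower, accD fell 1.32-fold and rpoC1 was 1.42-fold lower without passing the test. No gene of the 6 was called for DEX against mock in either light, where 5.9% of probe sets were called in darkness and 1.04% in far-red.

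For accD, the log2 signals were 7.47, 7.37, 7.20 and 7.12 in dark mock (replicates 1 to 4) and 7.15, 6.53, 6.37 and 6.45 in far-red mock. Only far-red mock replicate 1 reached the range of the dark mock arrays. Under DEX they were 7.22, 7.63, 7.17 and 7.12 in darkness and 7.13, 6.92, 6.80 and 6.69 in far-red, where replicate 1 alone overlapped the dark arrays, by 0.01. From the highest, the group means were 7.29 ± 0.16 in dark mock, 7.28 ± 0.23 in dark DEX, 6.89 ± 0.19 in far-red DEX and 6.62 ± 0.35 in far-red mock (SD, n = 4 each). Of the neighbours in that order, dark DEX and far-red DEX passed the limma test of their means, though their arrays overlapped. Both dark groups, and both far-red groups, did not pass it.

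The change of accD from dark to far-red was -0.67 ± 0.15 under mock (log2 change ± SE, limma adjusted p = 0.000864) and -0.40 ± 0.15 under DEX (limma adjusted p = 0.0342). Without far-red mock replicate 1 the mock value was -0.84. The call under mock held when any 1 of the 16 arrays was left out, whereas the call under DEX was lost without dark DEX replicate 2 (-0.28, limma adjusted p = 0.142) or far-red DEX replicate 2, 3 or 4 (limma adjusted p = 0.0531, 0.0806 and 0.110). Averaged over both treatments, a comparison added after the data were seen, accD fell by 0.53 ± 0.10 (limma adjusted p = 0.000172), with 0.47 to 0.62 when 1 array was left out.

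For rpoC1, the signals were 8.78, 8.77, 8.52 and 8.34 in dark mock and 8.93, 7.82, 7.31 and 7.81 in far-red mock. Far-red mock replicate 1 lay above all dark mock arrays and the other 3 lay below all of them. Under DEX, darkness gave 7.81, 8.77, 8.53 and 8.51 and far-red 8.03, 7.93, 7.79 and 7.83, so that dark DEX replicate 1 fell within the far-red range and the other dark arrays lay above it. The means ran from 8.60 ± 0.21 in dark mock and 8.40 ± 0.41 in dark DEX to 7.97 ± 0.68 in far-red mock and 7.90 ± 0.11 in far-red DEX (SD, n = 4 each). Neighbours in this order did not pass the limma test of their means where they were tested. The groups dark DEX and far-red mock, which share neither light nor treatment, were not compared.

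The change of rpoC1 was -0.63 ± 0.24 under mock (log2 change ± SE, limma adjusted p = 0.0382) and -0.51 ± 0.24 under DEX (limma adjusted p = 0.0968). It rested on single arrays and on the model. The call under mock was lost with a trended robust prior (limma adjusted p = 0.103) and when only the 2 groups compared were fitted (0.0587), and the latter fit called the change under DEX (0.0181), as array weights did (0.0486). Under mock it was -0.95 (limma adjusted p = 0.000205) without far-red mock replicate 1 and -0.42 (limma adjusted p = 0.169) without far-red mock replicate 3, and the call was also lost without dark mock replicate 1, 2 or 3 or far-red mock replicate 2 or 4 (limma adjusted p between 0.0556 and 0.0932). Under DEX it was -0.71 (limma adjusted p = 0.0218) without dark DEX replicate 1, and it was also called without far-red mock replicate 1 (limma adjusted p = 0.0157), an array that enters this contrast only through the shared spread. Averaged over both treatments it fell by 0.57 ± 0.17 (limma adjusted p = 0.00692), and this call held without any 1 array, at -0.73 to -0.46.

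**Figure D1:**
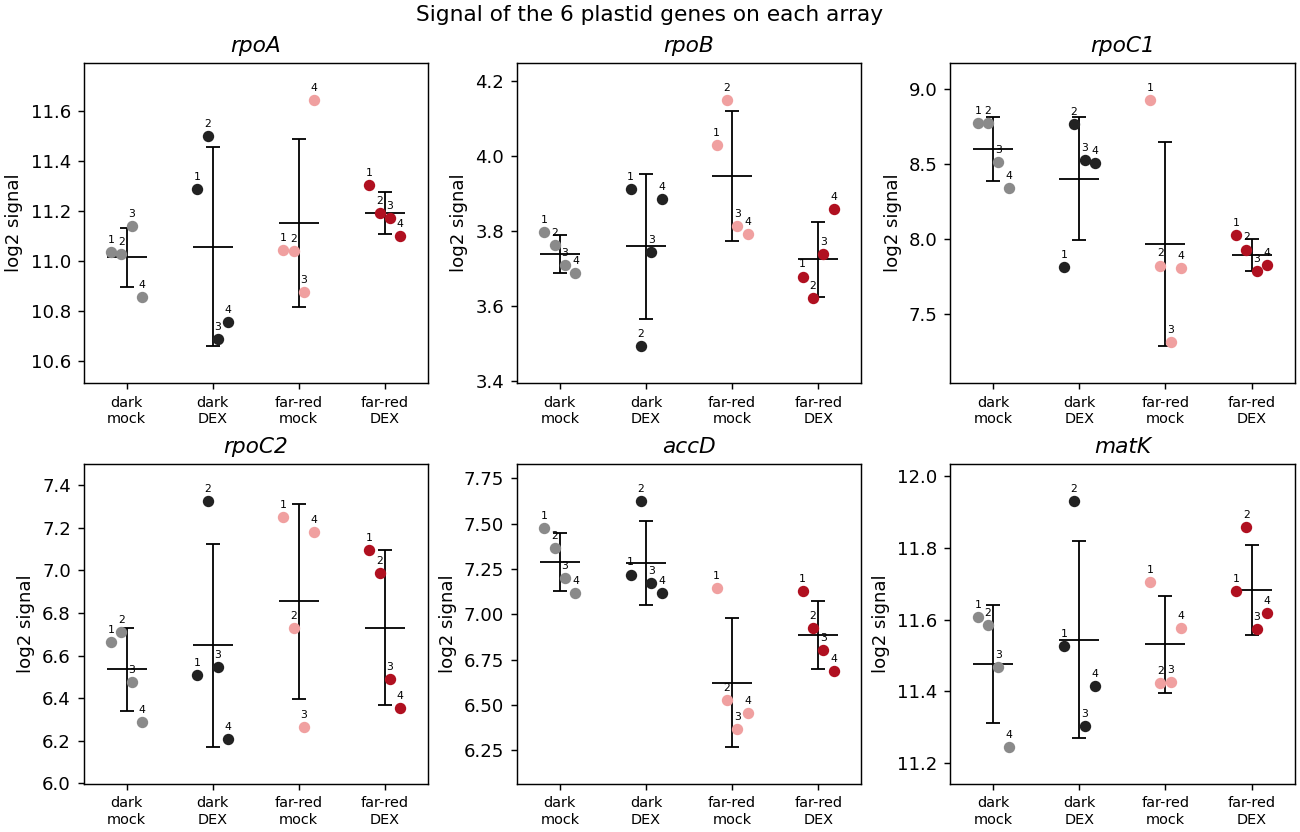
Log2 signal of each of the 6 genes on the 16 arrays (points, numbered by replicate) in the 4 groups of light and treatment, with the group mean and SD of 4 arrays. The group means of accD and rpoC1 are lower in far-red, with overlap through far-red mock replicate 1 (7.15 and 8.93), far-red DEX replicate 1 for accD (7.13) and dark DEX replicate 1 for rpoC1 (7.81), while the other 4 genes overlap between all groups; each panel has its own scale.

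The alpha subunit gene rpoA had log2 signals of 11.04, 11.03, 11.14 and 10.85 in dark mock, 11.29, 11.50, 10.69 and 10.76 in dark DEX, 11.05, 11.04, 10.88 and 11.65 in far-red mock and 11.30, 11.19, 11.17 and 11.10 in far-red DEX. All groups overlapped, and far-red mock replicate 4 and dark DEX replicate 2 were the highest arrays. The light change of rpoA was 0.14 ± 0.16 under mock and 0.14 ± 0.16 under DEX (log2 change ± SE, limma adjusted p = 0.557 and 0.565), with 95% intervals from -0.19 to 0.47 and from -0.20 to 0.47.

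The beta″ subunit gene rpoC2 gave 6.67, 6.71, 6.47 and 6.29 in dark mock, 6.51, 7.33, 6.55 and 6.21 in dark DEX, 7.25, 6.73, 6.26 and 7.18 in far-red mock and 7.09, 6.99, 6.49 and 6.36 in far-red DEX. All groups overlapped, and the dark mock arrays lay closest together, between 6.29 and 6.71. Its light change was 0.32 ± 0.22 under mock (95% interval from -0.14 to 0.78, limma adjusted p = 0.288) and 0.08 ± 0.22 under DEX (from -0.38 to 0.55, limma adjusted p = 0.824). Without far-red mock replicate 1 the mock value was 0.19.

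The maturase gene matK was among the steadiest of the 6, with an SD within groups of 0.18. Its signals were 11.61, 11.58, 11.47 and 11.25 in dark mock, 11.53, 11.93, 11.30 and 11.41 in dark DEX, 11.70, 11.42, 11.42 and 11.58 in far-red mock and 11.68, 11.86, 11.57 and 11.62 in far-red DEX. The light change was 0.06 ± 0.11 under mock (95% interval from -0.18 to 0.29, limma adjusted p = 0.759) and 0.14 ± 0.11 under DEX (from -0.10 to 0.38, limma adjusted p = 0.386). Without far-red mock replicate 1 the mock value was -0.0021. Without dark DEX replicate 2, its highest array, matK rose under DEX by 0.27 (limma adjusted p = 0.039).

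The beta subunit gene rpoB could hardly be measured. Its mean signal of 3.79 lay at percentile 11.8 of all probe sets, under their lower quartile of 4.45, and with no detection call it is unknown whether any array read the transcript. The 16 values ran from 3.49 in dark DEX replicate 2 to 4.15 in far-red mock replicate 2. The light change under mock was 0.21 ± 0.09 (log2 change ± SE, limma adjusted p = 0.0899; 0.26 and 0.0455 without far-red mock replicate 4), and under DEX -0.03 ± 0.09 (limma adjusted p = 0.827). No order of rpoB among the groups is drawn from these values.

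Far-red against dark called 38.6% of probe sets under mock and 39.7% under DEX among 22746, and 2 and 1 of the 6 genes, counts too small to set the genes apart from that background. Lower calls made up 20.8% and 22.2% of all probe sets, higher calls 17.8% and 17.5%, and none of the 6 was called higher. The arrays of the 2 lights did not overlap for 34.5% of probe sets under mock and 39.7% under DEX, and for 0 of the 6 genes in both. Averaged over both treatments, 48.5% of probe sets passed the test, 21.8% upward and 26.6% downward, and of the 6 genes 0 and 2. Between DEX and mock, 10.6% of probe sets did not overlap in darkness and 6.41% in far-red, and again 0 of the 6 genes. In seedlings, a change in plastids or plastid-rich cells and a change of RNA per plastid cannot be told apart.

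DEX left no called change in the 6 genes. In darkness, 5.9% of probe sets passed the test (2.34% up and 3.56% down) and 0 of the 6 genes, of which 0 had an unadjusted p under 0.05. Their log2 changes lay between -0.20 for rpoC1 and 0.11 for rpoC2, with a median of 0.03 beside 0.01 for all probe sets. The 95% intervals bound what could have been missed: -0.31 to 0.30 for accD, -0.17 to 0.31 for matK, -0.29 to 0.37 for rpoA, -0.35 to 0.58 for rpoC2 and -0.69 to 0.29 for rpoC1.

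In far-red light, where DEX called 1.04% of probe sets (0.919% higher and 0.119% lower), 0 of the 6 genes were called and 1, rpoB, had an unadjusted p under 0.05 (-0.22 ± 0.09, limma adjusted p = 0.414). For accD, 3 far-red mock arrays lay below all far-red DEX arrays and replicate 1 above them, with a change of 0.26 ± 0.15 (limma adjusted p = 0.594), which was 0.44 (limma adjusted p = 0.135) without far-red mock replicate 1. matK stood at 0.15 ± 0.11, rpoA at 0.04 ± 0.16, rpoC1 at -0.07 ± 0.24 and rpoC2 at -0.12 ± 0.22 (log2 change ± SE). The rpoC1 value was 0.25 without far-red mock replicate 1 and -0.29 without far-red mock replicate 3.

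The DEX response was not found to differ between the lights for any of the 6 genes. This difference was called for 2.15% of probe sets (1.7% higher and 0.448% lower) and for 0 of the 6 genes, of which 0 had an unadjusted p under 0.05. It ranged from -0.24 ± 0.13 for the dim rpoB (limma adjusted p = 0.485) to 0.27 ± 0.21 for accD (limma adjusted p = 0.659), with 95% intervals from -0.52 to 0.03 and from -0.16 to 0.70. Averaged over both lights, a comparison added after the data were seen, DEX called 4.71% of probe sets (2.13% higher and 2.58% lower) and 0 of the 6 genes, again with 0 at an unadjusted p under 0.05. The values there lay between -0.14 and 0.13 on the log2 scale.

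**Figure D2:**
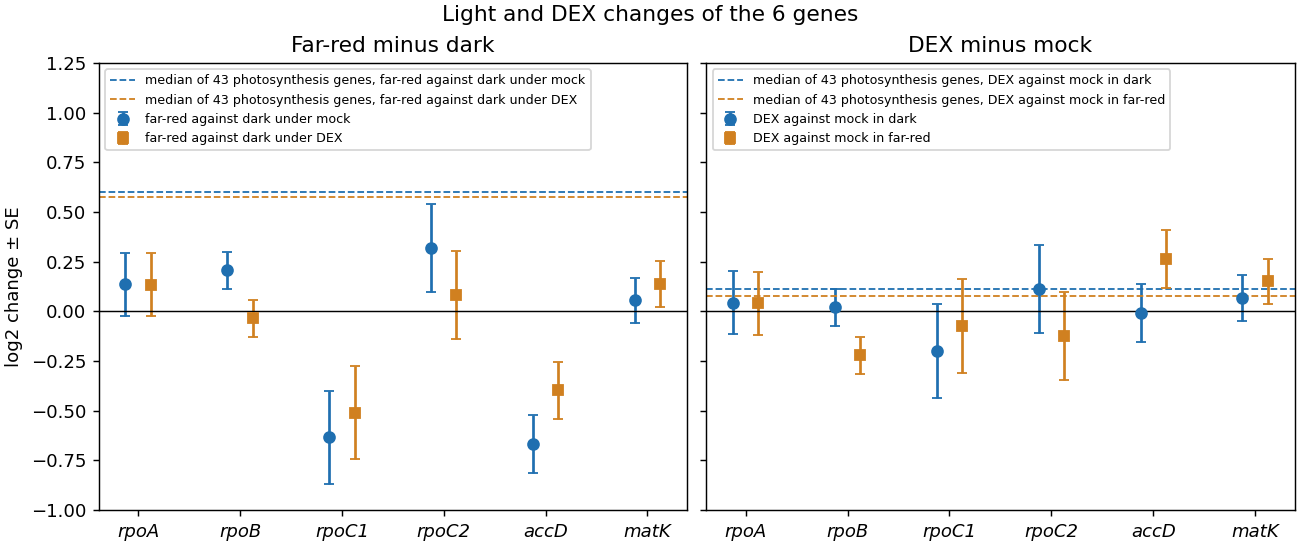
Log2 changes ± SE of the 6 genes, on the left for far-red minus dark under mock (circles) and DEX (squares) and on the right for DEX minus mock in darkness (circles) and far-red (squares), with the medians of the 43 plastid photosynthesis genes as dashed lines. rpoC1 and accD lie below 0 in both light contrasts, while the photosynthesis medians lie at 0.60 and 0.58; the DEX changes all lie between -0.22 and 0.26.

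The other plastid genes are given by class, with no test between classes. Of 43 genes for photosystems, cytochrome complex, ATP synthase, NDH complex and the large subunit of RuBisCO, 34 were higher in far-red under mock, 0 were lower and 9 were not called, with a median log2 change of 0.60. Among 15 ribosomal protein genes of the plastid, 5 were higher and 10 were not called, and the median was 0.00. For the 6 genes the median was 0.10, and for all 22746 probe sets -0.0038. Under DEX the photosynthesis genes had 34 higher, 0 lower and a median of 0.58, the ribosomal protein genes 2 higher, 1 lower and a median of -0.0003, and the 6 genes a median of 0.02. The 1 ribosomal protein gene that fell under DEX was rpl16 (-0.58 ± 0.19, limma adjusted p = 0.0164). Among the 69 plastid genes, rpoC1 and accD had the lowest light changes averaged over both treatments, with rpl16 (-0.46) the third gene called lower.

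The array level of plastid RNA moved with light too. The median signal of the 69 plastid genes was 8.72 ± 0.12 in dark mock, 8.85 ± 0.31 in dark DEX, 9.32 ± 0.24 in far-red mock and 9.37 ± 0.18 in far-red DEX (SD, n = 4 each), and the signal of the 25S ribosomal RNA control was 11.88 ± 0.18, 11.95 ± 0.28, 12.40 ± 0.19 and 12.37 ± 0.09 in the same order. Plastid and ribosomal RNAs carry no long poly(A) tail, and how the RNA was primed is not given in the sources used here; the part of labelling in the light changes was not tested. The median of 11 mitochondria-encoded genes, whose transcripts likewise lack such tails, was 4.89 ± 0.03 in darkness and 4.92 ± 0.10 in far-red under mock. Under DEX it was 4.68 ± 0.24 in darkness and 4.78 ± 0.07 in far-red. Of the 11, 1 was called higher in far-red under mock and 0 under DEX. These signals were dim, near the lower quartile of all probe sets at 4.45, so a shift could be missed. When each array was centred on its plastid genes, 5 of the 6 genes were called lower in far-red under mock and 6 of 6 under DEX. Of all 22746 probe sets, 18748 were then called lower under mock and 17610 under DEX. The counts for the 6 genes therefore do not set them apart from that background. accD stood at -1.26 and -0.92, rpoC1 at -1.23 and -1.03, matK at -0.54 and -0.38 and rpoA at -0.46 and -0.39. The gene of the 6 that was not called was rpoC2 under mock, at -0.28 (limma adjusted p = 0.147). The fit after centring gave rpoA, rpoB, rpoC2 and matK the same SE of 0.18 under mock and under DEX. In the main model the SE was 0.09 for rpoB and 0.22 for rpoC2. Calls after centring therefore do not use the spread of each gene. This centring lowers the median of all probe sets by 0.60 and 0.52. These values thus say only that the genes changed unequally from the middle plastid gene.

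**Figure D3:**
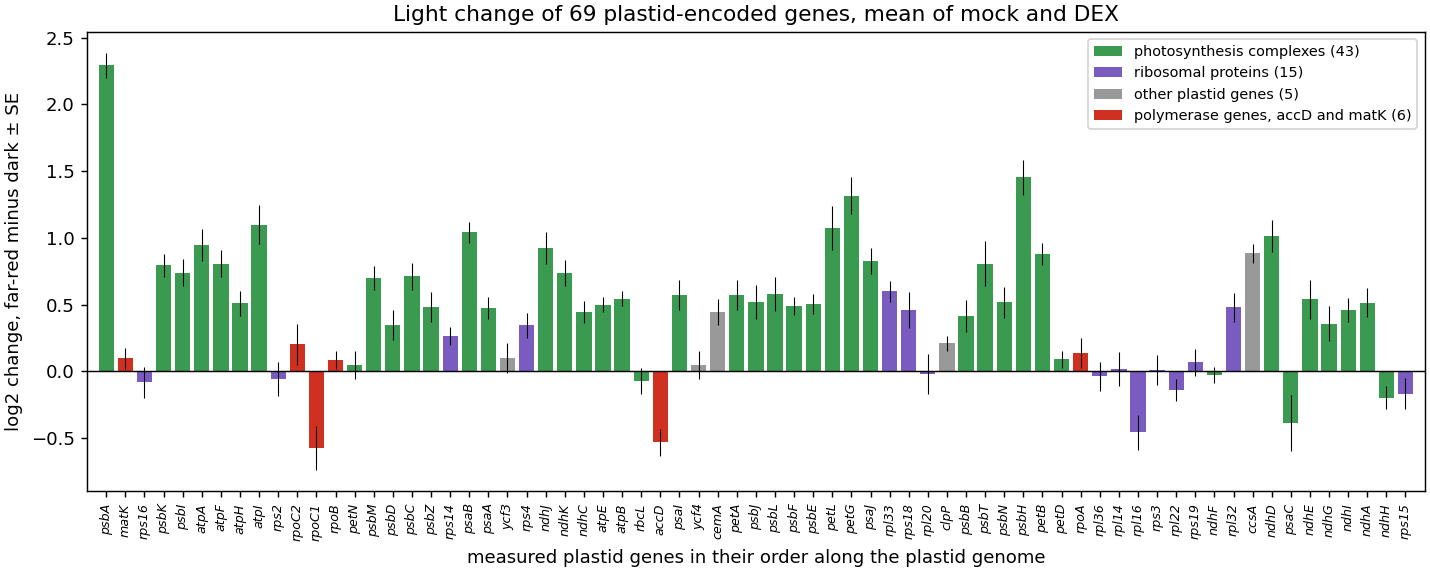
Log2 change from dark to far-red, mean of mock and DEX, with its SE for the 69 measured plastid genes, drawn as bars in their order along the plastid genome and coloured by function. Most photosynthesis genes rise while rpoC1, accD and rpl16 carry the negative bars that passed the test, beside neighbours such as psaI at 0.57 and rbcL at -0.07.

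Each gene was then compared with the nearest measured plastid gene on both sides, by the difference of log2 signals on the same array, which cancels the level of an array. These 10 pairs were chosen by position after the data were seen. The light labels were exchanged within mock and within DEX in all 4900 ways (exact two-sided permutation test, smallest possible p 0.000408), with adjustment over the 10 pairs. The offset of such a difference has no meaning of its own, so only its change is read.

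The gene pair rpoC1 and rpoC2, which belong to the same operon, did not change alike. rpoC1 minus rpoC2 was 2.11, 2.06, 2.04 and 2.06 in dark mock and 1.68, 1.10, 1.05 and 0.63 in far-red mock. Under DEX the difference was 1.303, 1.442, 1.98 and 2.30 in darkness and 0.93, 0.95, 1.302 and 1.48 in far-red. All far-red mock arrays lay below all dark mock arrays, and the DEX groups overlapped. The change was -0.96 under mock and -0.59 under DEX (average -0.77, exact permutation p = 0.00163, adjusted p = 0.0051), and the average was -0.87 without far-red mock replicate 1. Differences that involve rpoB are not read, since its probe set lies at the dim end described above.

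accD stood apart from both neighbours. accD minus psaI, the gene of a small photosystem I subunit that lies downstream of it, was -2.78, -2.71, -2.72 and -2.59 in dark mock and -3.84, -3.89, -3.82 and -4.16 in far-red mock. Under DEX it was -2.88, -2.89, -2.67 and -2.66 in darkness and -3.64, -3.82, -3.75 and -3.81 in far-red. The lights did not overlap in either treatment, far-red mock replicate 1 included. The change averaged -1.10 (exact permutation p = 0.000408, the smallest possible, adjusted p = 0.00204), and -1.12 without far-red mock replicate 1. Of the -1.10, psaI contributed a rise of 0.57 ± 0.11 on its own.

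For accD minus rbcL, the RuBisCO large subunit gene upstream, the values were -2.60, -2.71, -2.83 and -2.84 in dark mock and -3.25, -3.38, -3.43 and -3.70 in far-red mock. Under DEX they were -3.25, -2.87, -2.78 and -2.77 in darkness and -3.17, -3.13, -3.11 and -3.16 in far-red. Here dark DEX replicate 1 lay below all far-red DEX arrays, while under mock the lights did not overlap. The average change was -0.46 (exact permutation p = 0.00204, adjusted p = 0.0051), and -0.49 without far-red mock replicate 1. With all arrays the change was -0.70 under mock and -0.23 under DEX. rbcL itself changed by -0.07 ± 0.10 (limma adjusted p = 0.608).

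matK minus psbA, the gene of the photosystem II core protein D1 beside it, changed by -2.19 (exact permutation p = 0.000408, the smallest possible, adjusted p = 0.00204), with psbA higher in far-red by 2.29 ± 0.09. The average was -2.18 without far-red mock replicate 1. Of the other pairs without rpoB, 4 did not pass: matK minus rps16 0.18 (adjusted exact permutation p = 0.0578), rpoC2 minus rps2 0.26 (0.0834), rpoA minus rpl36 0.17 (0.288) and rpoA minus petD 0.04 (0.787). Without far-red mock replicate 1, matK minus rps16 (0.19, adjusted exact permutation p = 0.0449), rpoC2 minus rps2 (0.30, 0.0449) and rpoA minus rpl36 (0.27, 0.0333) passed. matK minus rps16 also passed without far-red mock replicate 4 (0.21) or far-red DEX replicate 1 (0.23), and rpoC2 minus rps2 without dark DEX replicate 2 (0.32). The genes rps16, rps2 and rpl36 encode ribosomal proteins, and petD a subunit of the cytochrome complex. The probe sets of rps16 and petD were dim, with mean signals of 4.74 and 4.27.

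**Figure D4:**
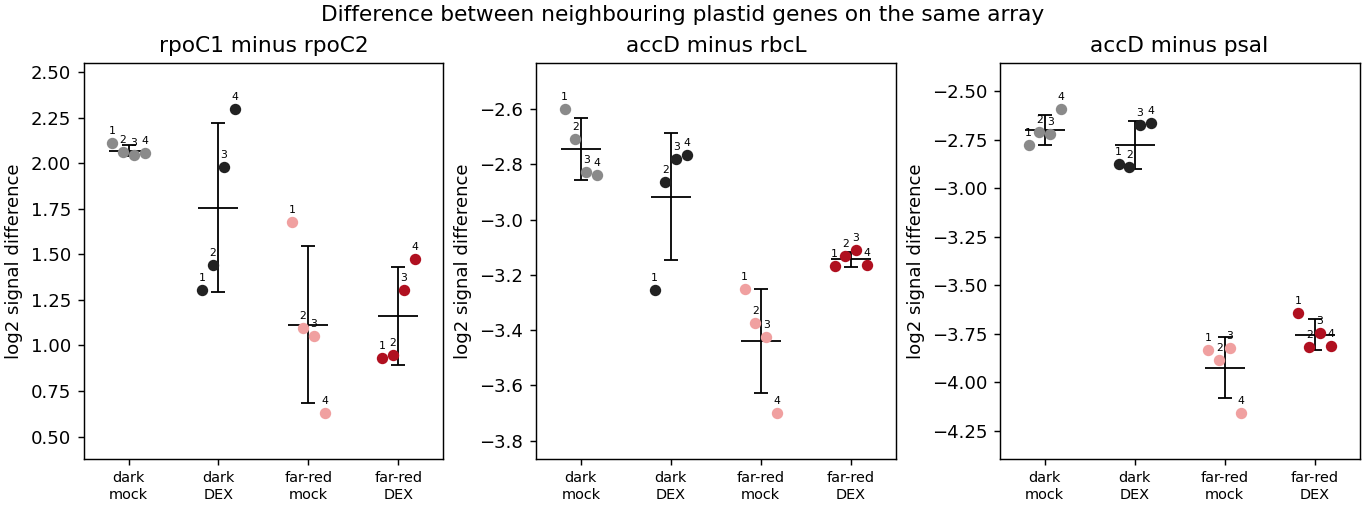
Difference of log2 signals on the same array between neighbouring plastid genes, for rpoC1 minus rpoC2, accD minus rbcL and accD minus psaI, as points numbered by replicate with the mean and SD of 4 arrays. All 8 far-red values of accD minus psaI, between -4.16 and -3.64, lie below all 8 dark values, between -2.89 and -2.59; the other panels overlap in DEX.

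Within groups, arrays that read high for accD also tended to read high for rpoC1, rpoC2 and matK. After subtraction of the group means, over 16 arrays, accD correlated with rpoC1 at r = 0.81 (rho = 0.74, permutation p = 0.00142 for r and 0.00574 for rho), with rpoC2 at r = 0.80 (rho = 0.79, p = 0.00048 and 0.001) and with matK at r = 0.74 (rho = 0.71, p = 0.00313 and 0.00344). rpoC2 and matK correlated at r = 0.80 (rho = 0.78, permutation p = 0.0014 and 0.00217). The 15 pairs were tested by 100000 exchanges of arrays within groups; these 4 had an adjusted p for r between 0.0071 and 0.0117, and the other 11 did not pass. Without the 2 arrays farthest from the median of the first gene, r was 0.61 for rpoC1 with accD and 0.73 for rpoC2 with accD. In the same way it was 0.74 for rpoC2 with matK and 0.61 for accD with matK. Without far-red mock replicate 1 alone, the r of these 4 pairs was 0.59, 0.85, 0.78 and 0.78 in the same order.

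Some arrays carried these deviations. Far-red mock replicate 1 lay above its group mean by 0.96 for rpoC1, 0.52 for accD and 0.40 for rpoC2, and its plastid median of 9.60 was the highest of the 16 arrays. Dark DEX replicate 2 lay above its mean by 0.68 for rpoC2, 0.44 for rpoA, 0.39 for matK, 0.37 for rpoC1 and 0.34 for accD, with a plastid median of 9.20, the highest among the dark arrays. In contrast, far-red mock replicate 3 lay 0.66 below the mean for rpoC1 (-0.66) and 0.59 below for rpoC2 (-0.59). The part of the array level of plastid RNA in these correlations was not tested.

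**Figure D5:**
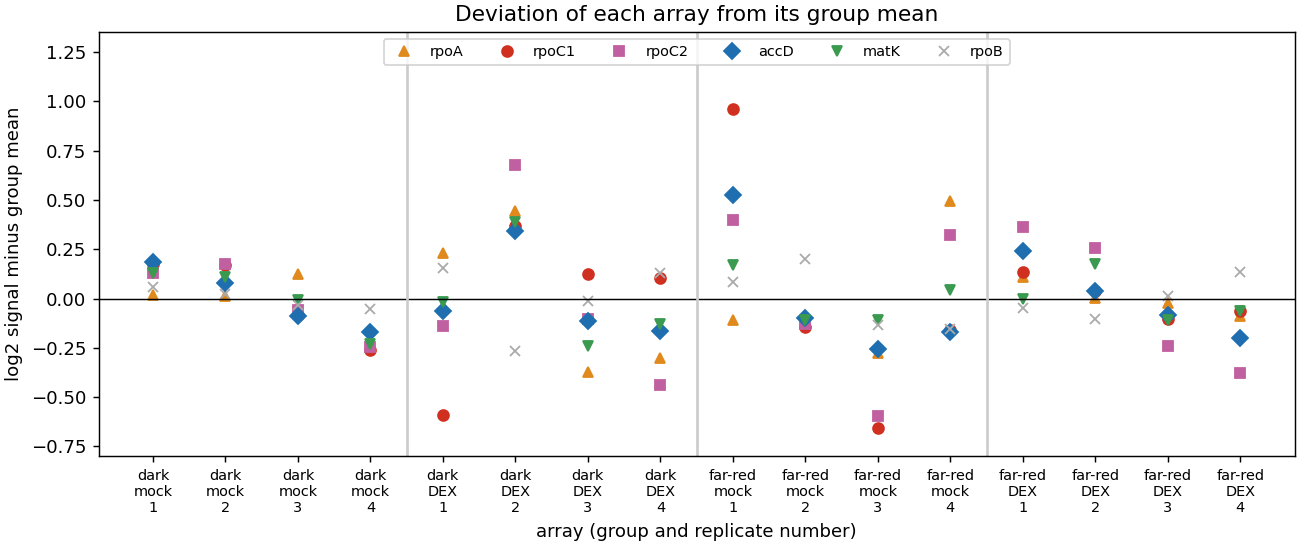
Log2 signal minus the group mean for the 6 genes on each of the 16 arrays, ordered by group and replicate. rpoC1, rpoC2, accD and matK move together on several arrays, such as dark DEX replicate 2, and rpoC1 reaches 0.96 on far-red mock replicate 1.

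The genes most like each of the 6 were sought among the other 13355 by Pearson's r over the 16 arrays, as a description. For accD they were AT1G19710 (0.94), AT1G18160 (0.92) and AT5G11230 (0.92), and for rpoC1 AT4G11380 (0.90), AT1G80960 (0.89) and TRM34 (0.88). These arrays share light groups, so such an r includes the difference between dark and far-red. For rpoA, rpoC2 and matK the list held AT2G18540 (0.88), ycf3 (0.86) and rps19 (0.85), ycf3 (0.85), rpl14 (0.84) and AT5G47930 (0.84), and AT5G47930 (0.83), psbZ (0.82) and rps19 (0.80). By deviations from the group means the nearest were ccsA (0.97), psbD (0.94) and AT5G46840 (0.93) for accD, petA (0.92), psaI (0.90) and atpA (0.89) for rpoC2, psbZ (0.92), psaI (0.90) and petA (0.90) for matK, and AT4G40000 (0.90), psbC (0.87) and AT4G11380 (0.87) for rpoC1. These lists name 16 different genes, of which 7 were plastid-encoded, since psaI and petA stand for both rpoC2 and matK; for rpoA (AT2G18540, AT3G19400 and AT4G33740, 0.91 to 0.90) and rpoB (AT5G14580, AT1G23560 and AT3G23020, 0.86 to 0.83) none was.

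The nuclear partners of these genes were nearly all out of reach. Of 21 listed genes of plastid polymerases, sigma factors and accessory proteins, 1 was measured: AT5G15700, which encodes the phage-type polymerase RPOTmp of plastids and mitochondria. Under mock its signal was 4.74 ± 0.06 in darkness and 4.76 ± 0.17 in far-red (SD, n = 4 each). Its light changes were 0.02 ± 0.08 under mock and 0.08 ± 0.08 under DEX (log2 change ± SE). Its DEX changes were -0.02 ± 0.08 in darkness and 0.04 ± 0.08 in far-red, and none of these was called. The probe set was dim, with a mean signal of 4.76 beside 4.74 for rps16, so a change could be missed. Of 8 nuclear genes for splicing of plastid introns, CAF1 and OTP70 were measured and 0 of 2 was called in any planned comparison; CAF1, known as a factor for group II introns, changed with light by 0.24 ± 0.12 under mock and 0.22 ± 0.12 under DEX, and passed only averaged over both (0.23 ± 0.09, limma adjusted p = 0.0340). OTP70, a pentatricopeptide repeat protein known to act on the rpoC1 intron, had light changes of 0.00 ± 0.10 and -0.12 ± 0.10. None of the 7 listed genes of acetyl-CoA carboxylase, the partners of accD, was paired with a probe set here.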

How the data were processed

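The authors deposited 1 column of log2 signals for each of 16 samples, and the submitters' processing notes name RMA and affy, with no version or setting in the sources used here. Array medians lay between 6.60 and 6.68, which hides any shift common to every transcript, and there is no detection call: precision rests on 4 arrays per group, which the design text calls biological replicates. The file holds 22810 probe sets, of which 64 manufacturer controls were left out of the tests; 13513 of the other 22746 are paired with 1 gene. Names and gene order came from RefSeq (TAIR10.1), which matched 13436 of them. Mitochondrial genes were matched by symbol. 0 value columns were unused.

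A single limma 3.58.1 model (R 4.3.3, lmFit, eBayes, 19.65 degrees of freedom) with a mean per group was fitted to 22746 probe sets. Benjamini-Hochberg adjustment ran over all of them, with calls at an adjusted p under 0.05. Every limma adjusted p comes from this model or, where named, from a fit without 1 array or from another alternative listed below. The model was tested on simulated data. Permutation tests used numpy 2.4.6. Named genes are the 6 genes, their plastid neighbours, measured members of the gene lists and the 3 genes nearest in pattern. The members and lists were chosen with earlier results of these data known. Alternatives were quantile normalisation, a trended robust prior, array weights, fewer groups, a filter on dim probe sets, centring on plastid genes, a replicate block and leaving out each array; no member had another probe set.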

Additional observations from a re-analysis of the deposited data

How the results depend on the processing

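With 4 arrays a group and no background call, the precision is that of the array number, and rpoB lies too near the dim end for its changes to be read. No other probe set of a member existed, so that alternative was not run, and rpoB has no value without the dimmest 25% of probe sets. The replicate numbers were not used as pairs in the main model. Deviations of 24 same-numbered pairs correlated at a median of 0.04, with 7 over 0.1. For 72 pairs of unlike number the median was -0.04, with 14 over 0.1. Of 16 arrays, 4 correlated best with an array of their own number. With the replicate as a block no call among the 6 genes changed (rpoC1 under mock -0.63, limma adjusted p = 0.0426; accD -0.67 under mock and -0.40 under DEX).

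Array weights gave accD 0.025 for DEX in darkness, rpoC1 0.0031 for DEX in far-red, rpoA 0.057 for the difference of the DEX response and rpoC2 0.030 for DEX averaged, each of opposite sign to the reported value. They called 1 member higher under mock (rpoB, 0.25), 2 members lower under DEX (accD and rpoC1), and 158 probe sets lower for the difference. Quantile normalisation turned matK under mock to -0.0031, the difference of rpoA to 0.024 and rpoB minus petN to -0.0024. The trended robust prior left 1 member lower under mock, without rpoC1, and called 55 probe sets lower for DEX in far-red. Fitting only the groups compared left 1 member lower under mock, again without rpoC1, and 2 under DEX, with rpoC1, and 17 probe sets lower for DEX in far-red. The cause was not tested for these.

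Centring on plastid genes, which shifts all other genes by construction, turned the light changes under mock to -0.46 for rpoA, -0.39 for rpoB, -0.28 for rpoC2 and -0.54 for matK, with 5 members called lower and 604 probe sets higher against 18748 lower. Under DEX it gave rpoA -0.39, rpoC2 -0.44 and matK -0.38, with 6 members lower and 932 against 17610 probe sets. Averaged over treatments it gave rpoA -0.42, rpoB -0.47, rpoC2 -0.36 and matK -0.46, with 6 members lower and 917 against 19732 probe sets. For DEX in darkness it gave rpoA -0.086, rpoB -0.11, rpoC2 -0.015 and matK -0.061, with 82 against 429 probe sets. For DEX in far-red it gave rpoA -0.010 with 30 against 1. For the difference it gave rpoA 0.076 with 160 against 2, and for DEX averaged rpoA -0.048 with 95 against 234. As said above, calls after centring do not use the spread of each gene.

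Leaving out 1 array at a time moved the members called under mock between 0 and 1 higher and 1 and 2 lower, and under DEX between 0 and 1 higher and 0 and 2 lower. Probe sets called lower ranged from 15 to 36 for DEX in far-red and from 76 to 154 for the difference. Small changes of no call changed sign: for DEX in darkness accD ranged from -0.12 to 0.054, matK from -0.062 to 0.15, rpoA from -0.11 to 0.17, rpoB from -0.032 to 0.11 and rpoC2 from -0.11 to 0.26. For DEX in far-red, rpoA ranged from -0.051 to 0.21, rpoC1 from -0.29 to 0.25 and rpoC2 from -0.32 to 0.0073. For DEX averaged, rpoA ranged from -0.032 to 0.12, rpoC1 from -0.25 to 0.024 and rpoC2 from -0.12 to 0.068, and for the difference rpoA from -0.13 to 0.16 and rpoC1 from -0.094 to 0.44. For light, rpoA and matK under mock ranged from -0.028 to 0.23 and from -0.022 to 0.10, and rpoB and rpoC2 under DEX from -0.12 to 0.017 and from -0.064 to 0.31. Among the pairs of neighbours, rpoA minus petD ranged from -0.045 to 0.13, rpoA minus rpl36 from 0.093 to 0.27, rpoB minus petN from -0.019 to 0.12, rpoC2 minus rps2 from 0.20 to 0.32 and matK minus rps16 from 0.15 to 0.23.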
